A study of Mus musculus with 6 samples.

Results

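Genes of cholesterol synthesis, of its control by the sterol-sensing SREBP system and of cholesterol removal were examined in the S1 cortex (primary somatosensory cortex) of mice with and without whisker stimulation. The set was chosen by gene name and held 27 genes, 8 enzymes from acetyl-CoA to squalene, 10 enzymes from squalene to cholesterol, 5 genes of SREBP control and 4 genes of sterol transport and removal. All 27 were among the 14824 genes listed in the deposited data, and all 27 were among the 13747 genes with enough counts to be tested.

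Bulk RNA-seq had been performed on WT mice of strain C57B6 at postnatal day 21, 90 minutes after the last of 8 days of whisker stimulation (WS, n = 3 libraries), and on untreated controls (NS, n = 3 libraries, named NW control in the labels). The supplement of the study shows the hemisphere of the side that received no stimulation as the control, and gives the animals as male. Each library came from a whole piece of S1 cortex with neurons, glia and vessel cells, so fewer cells of a type and less RNA per cell cannot be told apart. The legends of the RNA-seq figures give n = 3 mice, with n = 3 for WS and n = 3 for NS. They do not say whether both groups came from the same animals, and nothing in the labels ties a library to an animal.

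Cholesterol hardly crosses the blood-brain barrier, and the brain makes its own. Synthesis starts from acetyl-CoA, passes through mevalonate and the isoprenoid farnesyl diphosphate to squalene, and then closes the sterol rings and trims lanosterol to cholesterol. When membranes of the endoplasmic reticulum run low in sterol, Scap carries the SREBP proteins to the Golgi, where they are cut and released to switch on the enzymes, while the Insig proteins hold Scap back when sterol is plentiful. In the young cortex, myelinating oligodendrocytes and astrocytes are known for high synthesis, astrocytes pass cholesterol to neurons on ApoE particles, and neurons clear the excess through Cyp46a1.

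Counts of each library were computed back from the gene means, SDs and z-scores that the authors deposited. The libraries held 15660395 to 17276168 counts, of which the 27 genes took 53314 to 61989. Of the cell types named in the labels, 5 were checked by their markers and all were present in each library, with summed CPM (counts scaled to a common library size) of 7669 to 8170 for 8 neuronal markers, 8363 to 13324 for 10 oligodendrocyte markers, 4565 to 5702 for 9 astrocyte markers, 286 to 317 for 6 microglial markers and 252 to 338 for 10 endothelial markers, and no marker was at 0. WS replicates 1 and 3 stood farthest apart of any pair of libraries, with a chi-square of 21.5 per degree of freedom over all genes, against 4.49 for the closest pair.

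Levels of different genes were compared as CPM per kilobase of merged exon length. Apoe, the main apolipoprotein of the brain, stood first with 654 ± 47.1 CPM per kilobase in NS (SD, n = 3) and 708 ± 71.2 in WS. Cyp46a1, the neuronal cholesterol hydroxylase, followed with 145 ± 2.64 in NS and 150 ± 34.6 in WS, so its mean hardly differed between the groups while its spread did. Hmgcs1, the synthase that makes HMG-CoA, led the enzymes with 100.2 ± 6.21 in NS and 99.1 ± 10.4 in WS. Msmo1, the sterol methyl oxidase, came next among the enzymes with 62.3 ± 4.68 in NS. Lowest of the enzymes was Hsd17b7, the sterol ketoreductase, with 5.87 ± 0.694 in NS, and lowest of the whole set was Abca1, a cholesterol exporter, with 2.79 ± 0.104 in NS. The level of Fdps is uncertain, because 77.4% of its exon bases are shared with Gm43738, a gene model on the same strand.

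**Figure D1:**
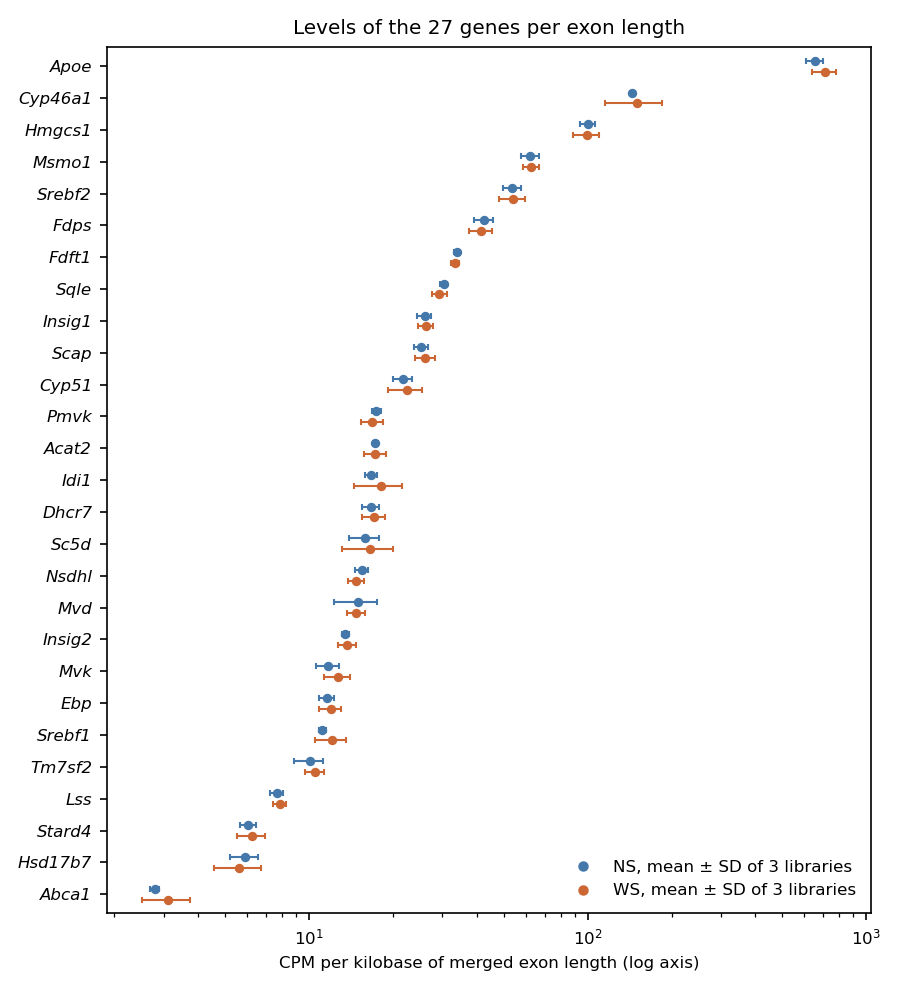
Levels of the 27 genes, ordered by their NS mean, as CPM per kilobase of merged exon length on a log axis. Points are means of 3 NS (blue) or 3 WS (orange) libraries and bars are SDs. NS means run from 654 for Apoe to 2.79 for Abca1, NS and WS means sit side by side, and the SD of Cyp46a1 is 34.6 in WS and 2.64 in NS.

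Whisker stimulation was compared with no stimulation to ask whether the transcripts of the pathway differed 90 minutes after the last session. No gene of the set passed the test. With edgeR's quasi-likelihood test and Benjamini-Hochberg adjustment over all tested genes, 0 of 27 had an adjusted p under 0.05 (background 0.0364% of all tested genes, 5 of 13747), and each of the 27 had an adjusted p of 0.9998. DESeq2 called 0 of 27 as well (background 0.0582%, 8 genes). With the replicate number as a block, edgeR called 11 of all tested genes in place of 5 (background 0.08%) and again 0 of the 27. The study's methods add a log2 fold change over 1, and no gene of the set met both limits in the edgeR fit (background 0.0291%). The study itself used DESeq2 and PossionDis and reported many more genes as changed. Its own comparison was not used here. At an unadjusted p under 0.05 the count was 0 of 27 higher in WS (background 0.866%) and 0 of 27 lower (background 0.327%) with edgeR, and 0 of 27 with DESeq2. With the replicate block these counts were again 0 of 27 in each direction (background 1.38% and 0.386%). The lowest unadjusted edgeR p of the set was 0.239, for Abca1. The 2 groups overlapped in every gene, that is, 0 of 27 had non-overlapping groups, where the background was 3.11% for WS higher and 3.16% for WS lower.

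The fitted log2 fold changes of WS over NS ran from −0.06 for Hsd17b7 to 0.16 for Abca1. Their median was 0.04, beside 0.0074 over all tested genes. Leaving out single libraries moved it from −0.00052 (without WS replicate 3) and −0.00035 (without NS replicate 1) to 0.055 (without NS replicate 2). The sign was positive for 18 genes and negative for 9, and 53% of all tested genes were positive. The size of the difference was bounded as follows. The 95% intervals of all 27 genes lay inside a 1.5-fold change in either direction, as did those of 82.9% of all tested genes. The lowest bound was 0.773-fold, for Hsd17b7, and the highest was 1.36-fold, for Abca1. Differences within these intervals could not be resolved with 3 libraries per group.

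**Figure D2:**
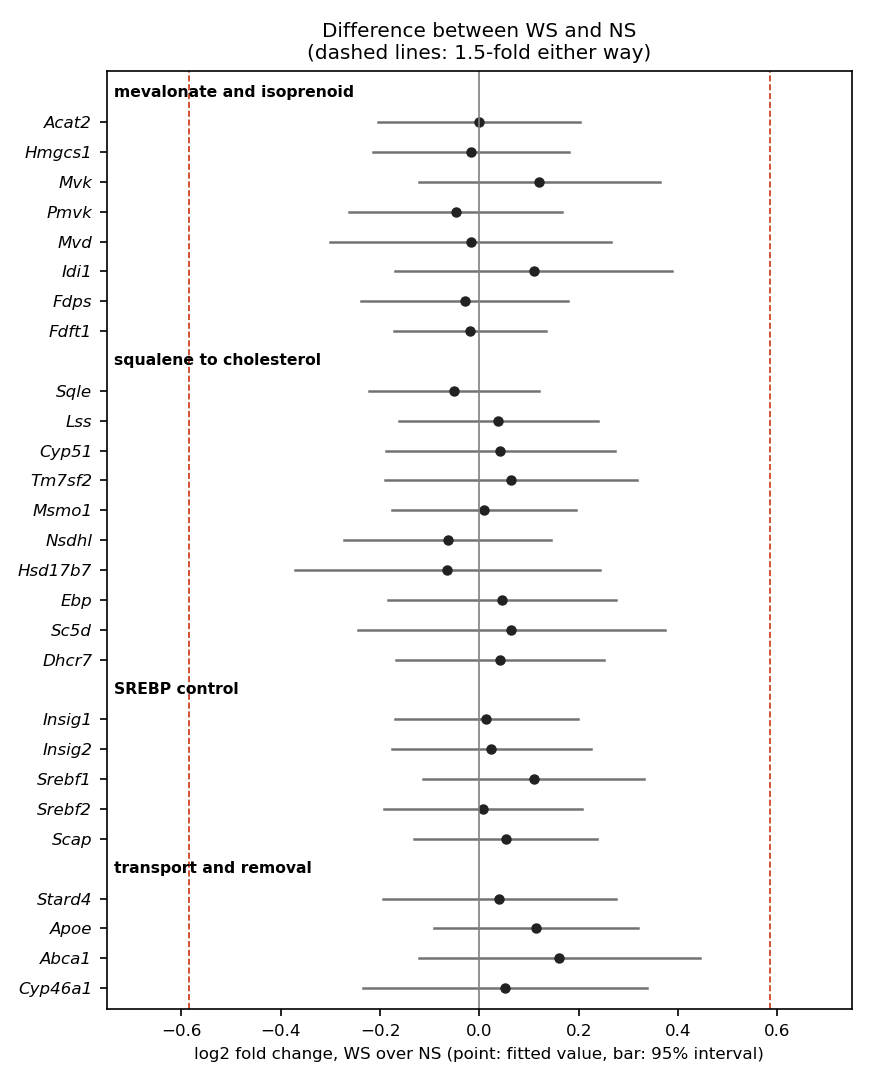
Fitted log2 fold change of WS over NS (points) with its 95% interval (bars) for each of the 27 genes, grouped by step of the pathway. Dashed lines mark a 1.5-fold change in either direction. Each interval crosses 0 and ends inside the dashed lines, the lowest bound being 0.773-fold for Hsd17b7 and the highest 1.36-fold for Abca1.

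The promoters of the set were searched for the sites at which SREBP and its partner factors are known to act, since the genes are known as a jointly controlled group. RefSeq promoters on GRCm38.p6 matched 23 of the 27 genes, and Fdps, Sqle, Fdft1 and Stard4 had no entry. A gene with several RefSeq starts was counted if the bases before any of them matched, in the set and in the background. Some of these starts lie inside a gene, as for the CCAAT boxes of Dhcr7. In the 250 bases before the start, on both strands, the CCAAT box (CCAAT, the site of NF-Y) was found in 19 of 23 genes, or 82.6%, against 40.2% of the 10843 tested genes with a promoter. The GC box (GGGCGG, the site of Sp1) was found in 21 of 23, or 91.3%, against 63.5%. The core of the sterol regulatory element (SRE, searched as CACNCCAC) was found in 3 of 23, in Acat2, Hmgcs1 and Insig1, or 13.0% against 6.69%. Its longer form TCACCCCAC, which contains the core, was found in Hmgcs1 alone, against 0.646% of the tested genes. The E-box CACGTG was found in 6 of 23, or 26.1% against 9.58%. A match describes the letters and does not show that a factor binds there. The bases before the start of 3 genes are shown. Hmgcs1 is the gene with the full SRE, Mvk has the most CCAAT boxes among those shown, and Sc5d, one of the genes that varied most between libraries, has a single one. Hmgcs1 lies on chr13:119690101-119690350, plus strand, Mvk on chr5:114444069-114444268, plus strand, and Sc5d on chr9:42264301-42264550, minus strand. The stretches are 250, 200 and 250 bases long, Mvk being shorter to leave out an exon of its neighbour, and none holds annotated exon bases. Capitals mark the CCAAT box on either strand (ATTGG when on the other strand) and, in Hmgcs1, the SRE core.
Hmgcs1: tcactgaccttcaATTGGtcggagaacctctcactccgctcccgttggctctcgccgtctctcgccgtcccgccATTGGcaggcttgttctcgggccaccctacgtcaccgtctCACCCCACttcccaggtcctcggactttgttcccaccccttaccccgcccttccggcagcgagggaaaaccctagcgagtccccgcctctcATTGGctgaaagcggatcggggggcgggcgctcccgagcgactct
Mvk: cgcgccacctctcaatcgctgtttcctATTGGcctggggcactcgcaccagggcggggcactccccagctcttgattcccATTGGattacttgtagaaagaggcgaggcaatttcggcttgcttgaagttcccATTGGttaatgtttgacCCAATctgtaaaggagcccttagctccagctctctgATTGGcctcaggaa
Sc5d: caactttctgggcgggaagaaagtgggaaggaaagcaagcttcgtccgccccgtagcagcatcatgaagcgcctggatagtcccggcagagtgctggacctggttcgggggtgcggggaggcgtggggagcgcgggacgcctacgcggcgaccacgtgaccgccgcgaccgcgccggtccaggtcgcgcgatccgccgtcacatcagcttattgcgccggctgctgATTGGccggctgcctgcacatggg

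Counted from the start, the SRE core of Hmgcs1 begins at base −136, between CCAAT boxes at −176 and −45, with a further one at −237. Mvk carries 5 CCAAT boxes, at −173, −120, −67, −50 and −14, and Sc5d carries 1, at −24. The 3 genes did not share a pattern across the libraries. Hmgcs1 and Sc5d were at their lowest in WS replicate 1, and Mvk was at its highest there.

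Among the enzymes from acetyl-CoA to squalene, 2 genes were positive and 6 negative, and their log2 fold changes had a median of −0.02. Acat2, the cytosolic thiolase that joins acetyl-CoA units, was at 43.8, 43.3 and 42.3 CPM in NS replicates 1, 2 and 3, and at 42.9, 47.0 and 39.3 CPM in WS replicates 1, 2 and 3. Hmgcs1 was at 329, 372 and 345 CPM in NS and at 306, 352 and 377 CPM in WS. In both genes the lowest and the highest WS library enclosed the 3 NS libraries, and the fold changes were the closest to none among the early enzymes, at −0.0012 ± 0.09 for Acat2 and −0.02 ± 0.09 for Hmgcs1 (log2 ± SE).

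The 3 enzymes that turn mevalonate into isopentenyl diphosphate are Mvk, Pmvk and Mvd, which add a phosphate, add another and remove a carboxyl group. Mvk was at 21.4, 25.7 and 22.7 CPM in NS and at 28.0, 25.1 and 22.7 CPM in WS, a log2 fold change of 0.12 ± 0.11. Its highest value was in WS replicate 1, and the other WS values lay within the NS range. Pmvk was at 30.4, 28.5 and 30.7 CPM in NS and at 31.8, 27.2 and 27.7 CPM in WS. Mvd was at 20.9, 29.1 and 28.6 CPM in NS and at 26.4, 27.5 and 23.8 CPM in WS. Mvd was 1 of only 3 genes of the set that varied more in NS than in WS, owing to the low value of NS replicate 1.

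Idi1, Fdps and Fdft1 build longer isoprenoids from isopentenyl diphosphate and join them into squalene. Idi1, the isomerase, was at 51.9, 52.3 and 47.8 CPM in NS and at 43.2, 56.3 and 64.4 CPM in WS. The WS values lay below, just above and well above the NS values, so the log2 fold change of 0.11 ± 0.13 was smaller than the spread of WS. Fdps, farnesyl diphosphate synthase, was at 57.7, 60.4 and 66.6 CPM in NS and at 60.5, 66.0 and 54.4 CPM in WS. Fdft1, squalene synthase, was the steadiest gene of the set, at 126, 122 and 126 CPM in NS and at 120, 128 and 122 CPM in WS. Its highest library was 1.06 times its lowest, and its interval, from 0.887-fold to 1.10-fold, was the narrowest of the 27.

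Among the enzymes from squalene to cholesterol, 7 genes were positive and 3 negative, and the median log2 fold change was 0.04. Sqle, squalene epoxidase, a known control point of the late pathway, was at 81.0, 85.9 and 84.8 CPM in NS and at 75.4, 84.6 and 82.9 CPM in WS. Lss, which closes the rings to lanosterol, was at 33.8, 37.4 and 36.0 CPM in NS and at 34.7, 36.7 and 38.7 CPM in WS. Both were lowest in replicate 1 of each group, and their log2 fold changes were −0.05 ± 0.08 and 0.04 ± 0.09. Per length, the ratio of Hmgcs1 to Sqle stayed between 3.21 and 3.60 in the 6 libraries, with a mean of 3.29 ± 0.121 in NS and 3.37 ± 0.205 in WS (SD, n = 3, exact two-sided permutation p = 0.7, where the smallest p possible is 0.1).

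Cyp51 and Tm7sf2 act on the lanosterol ring, where Cyp51 removes a methyl group and Tm7sf2 reduces the double bond that is left. Cyp51 was at 77.7, 88.3 and 90.1 CPM in NS and at 76.8, 85.9 and 101 CPM in WS. Tm7sf2 was at 15.6, 16.0 and 19.3 CPM in NS and at 19.0, 18.2 and 16.2 CPM in WS. The order of the libraries differed between these neighbouring steps, with WS replicate 3 the highest of 6 for Cyp51 and the lowest WS library for Tm7sf2.

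Msmo1, Nsdhl and Hsd17b7 together strip the remaining methyl groups from the ring. Msmo1 was at 117, 130 and 136 CPM in NS and at 118, 133 and 133 CPM in WS. Nsdhl was at 31.5, 34.8 and 34.2 CPM in NS and at 29.6, 33.7 and 32.8 CPM in WS. Hsd17b7 was at 25.6, 31.6 and 31.7 CPM in NS and at 23.3, 27.7 and 34.1 CPM in WS. In each of these genes replicate 1 was the lowest library of both groups. Nsdhl and Sqle were the only genes of the set that were lower in WS than in the NS library of the same number in 3 of 3 numbers (background 8.57%), by a log2 fold change of −0.06 ± 0.10 for Nsdhl.

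Ebp, Sc5d and Dhcr7 carry out the last rearrangements to cholesterol. Ebp, the isomerase, was at 19.7, 19.2 and 21.6 CPM in NS and at 22.2, 21.6 and 18.6 CPM in WS. Sc5d, the desaturase, was at 66.5, 84.1 and 80.9 CPM in NS and at 61.6, 89.4 and 91.2 CPM in WS. Dhcr7, the reductase of the final step in one branch, was at 52.1, 59.5 and 53.4 CPM in NS and at 60.5, 58.8 and 50.5 CPM in WS. WS replicate 1 was thus the lowest library for Sc5d and the highest for Ebp and Dhcr7. Sc5d had the largest biological coefficient of variation of the set, 12.6%, beside a median of 8.97% for the 27 genes and 9.70% for all tested genes.

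The 5 genes of SREBP control had a median log2 fold change of 0.02, each with a positive sign. Srebf2, which encodes the SREBP that acts mainly on cholesterol genes, was at 265, 295 and 257 CPM in NS and at 306, 266 and 250 CPM in WS. Srebf1, whose protein acts mainly on fatty acid genes, was at 46.7, 49.4 and 47.8 CPM in NS and at 59.1, 45.8 and 50.3 CPM in WS. Scap, their escort, was at 105, 113 and 101 CPM in NS and at 120, 109 and 102 CPM in WS. All 3 genes were highest in WS replicate 1, and their other WS values lay at or near the NS range, which left log2 fold changes of 0.0073 ± 0.09, 0.11 ± 0.10 and 0.05 ± 0.08. Without WS replicate 1 the log2 fold changes were −0.079 for Srebf2, 0.0034 for Srebf1 and −0.0096 for Scap.

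Insig1, itself a target of SREBP, was at 65.6, 73.7 and 70.6 CPM in NS and at 65.5, 73.3 and 73.2 CPM in WS. Insig2 was at 39.8, 38.6 and 40.9 CPM in NS and at 37.2, 42.9 and 41.2 CPM in WS. Unlike Srebf1, Srebf2 and Scap, both Insig genes were lowest in WS replicate 1. Per length, Srebf2 stood at 4.20 to 5.06 times Srebf1 in the 6 libraries, with means of 4.80 ± 0.251 in NS and 4.50 ± 0.372 in WS (SD, n = 3, exact two-sided permutation p = 0.3). Insig1 stood at 1.80 to 2.09 times Insig2, with means of 1.93 ± 0.148 in NS and 1.91 ± 0.0401 in WS (exact two-sided permutation p = 0.9). The ratio of Srebf2 to Srebf1 was lower in WS than in the NS library of the same number in 3 of 3 numbers, with a mean difference of −0.305 and an SD of the differences of 0.143. The exact sign-flip permutation p within numbers, a test chosen after seeing the data, was 0.25, the smallest that 3 pairs allow. Over the 6 ratios of this kind that were compared, the lowest Benjamini-Hochberg adjusted p was 0.9 for the permutation over libraries and 1 for that within numbers.

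The 4 genes of transport and removal had a median log2 fold change of 0.08, each with a positive sign. Apoe was at 1278, 1108 and 1222 CPM in NS and at 1451, 1206 and 1249 CPM in WS. It was the only gene of the set that was higher in WS than in the NS library of the same number in 3 of 3 numbers (background 9.82%), yet the groups overlapped and the log2 fold change was 0.11 ± 0.09, or 0.029 without WS replicate 1. Stard4, which carries sterol between membranes inside the cell, was at 30.3, 33.8 and 30.2 CPM in NS and at 28.4, 33.1 and 35.6 CPM in WS. Abca1, which loads cholesterol onto ApoE particles and is a known target of LXR, was at 28.5, 29.8 and 27.6 CPM in NS and at 27.4, 29.4 and 39.3 CPM in WS. Its log2 fold change of 0.16 ± 0.13 came from WS replicate 3 alone, and without that library it was −0.01.

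Cyp46a1 was at 300.2, 308 and 311 CPM in NS and at 398, 299.9 and 255 CPM in WS. The 3 NS libraries lay within a coefficient of variation of 1.82%, while that of WS was 23.1%, with replicate 1 above and replicate 3 below every NS library. Its log2 fold change was 0.05 ± 0.13, and leaving out WS replicate 1 or WS replicate 3 moved it to −0.14 or 0.19. Cyp46a1 and Abca1 went opposite ways between those libraries. Per length, Cyp46a1 stood at 70.3 times Abca1 in WS replicate 1 and at 31.4 times in WS replicate 3, against 50.1 to 54.5 times in the NS libraries, and the group means of 51.9 ± 2.33 in NS and 50.4 ± 19.5 in WS did not separate (SD, n = 3, exact two-sided permutation p = 0.7).

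**Figure D3:**
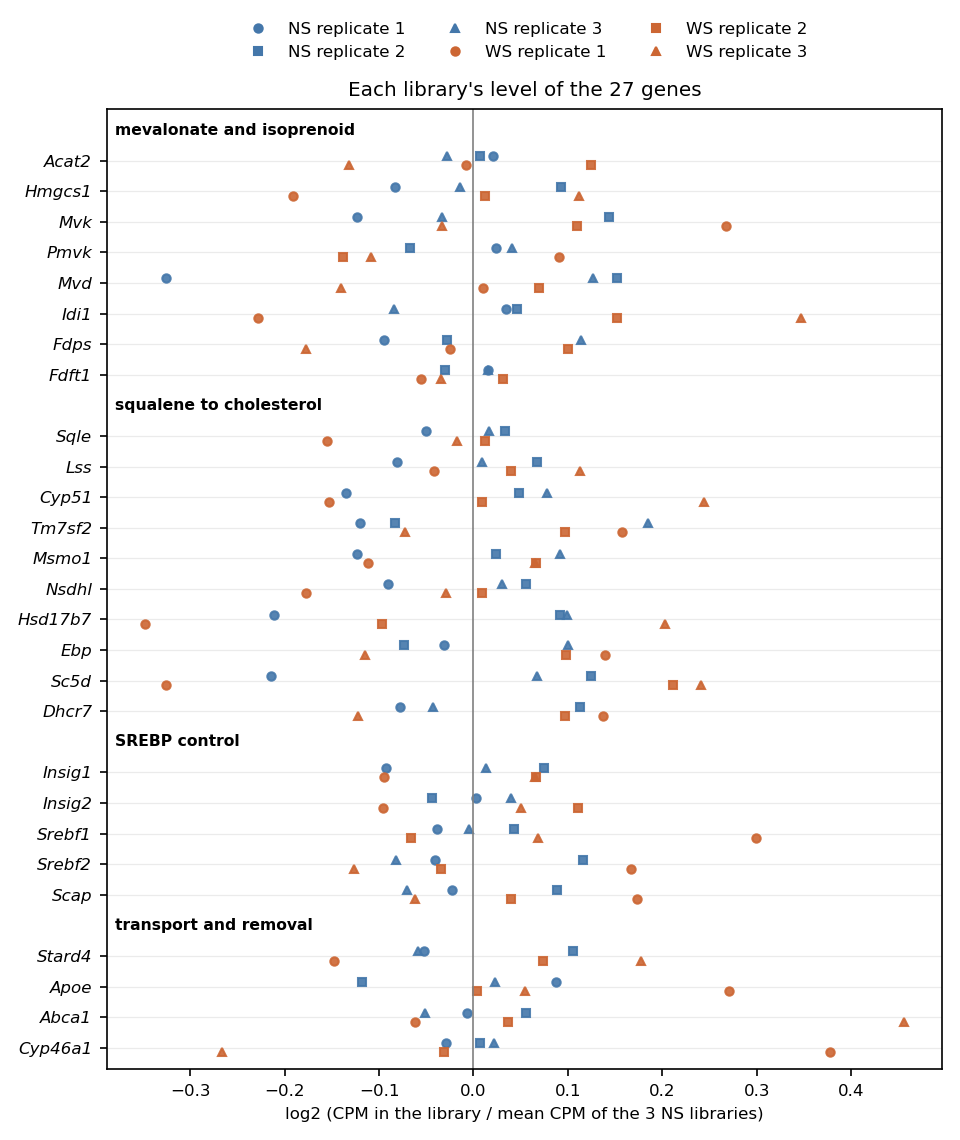
Level of each of the 27 genes in each library, as the log2 ratio of its CPM to the mean CPM of the 3 NS libraries, grouped by step. Blue symbols are NS and orange symbols are WS, and circles, squares and triangles are replicates 1, 2 and 3. The orange circles (WS replicate 1) and orange triangles (WS replicate 3) hold most of the outermost positions, and in no row do the colours separate.

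The set varied more among the WS libraries than among the NS libraries. The SD of log2 CPM was larger in WS for 24 of 27 genes, beside 64.1% of all tested genes. WS replicate 1 was the lowest of the 6 libraries for 12 genes and the highest for 9, so it was outermost for 21 of 27, beside 52.2% of all tested genes. WS replicate 3 was the lowest for 6 genes and the highest for 8, so it was outermost for 14, beside 46.2%. Genes of each role stood on both sides in WS replicate 1. Its lowest genes were the enzymes Hmgcs1, Idi1, Fdft1, Sqle, Cyp51, Nsdhl, Hsd17b7 and Sc5d together with Insig1, Insig2, Stard4 and Abca1, and its highest were Mvk, Pmvk, Ebp, Dhcr7, Srebf1, Srebf2, Scap, Apoe and Cyp46a1. When WS replicate 1 was left out, 2 genes reached an unadjusted p under 0.05 with WS higher (background 2.27% in that fit), Idi1 with a log2 fold change of 0.25 ± 0.09 and Sc5d with 0.23 ± 0.10. Neither passed edgeR's test after adjustment.

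Levels also followed the replicate number, a pattern noticed after the values were seen. Replicate 1 was the lowest library of NS and also of WS in 9 of 27 genes, beside 14.8% of all tested genes. Of these, 7 were among the 10 enzymes from squalene to cholesterol (Sqle, Lss, Cyp51, Msmo1, Nsdhl, Hsd17b7 and Sc5d), and the others were Hmgcs1 and Insig1. Summed over the 10 late enzymes, the level was 521, 586 and 588 CPM in NS replicates 1, 2 and 3, and 521, 590 and 599 CPM in WS replicates 1, 2 and 3. Replicate 1 thus stood apart in both groups by a like margin, and the groups lay side by side within each number. The 8 early enzymes summed to 682, 734 and 711 CPM in NS and to 659, 729 and 732 CPM in WS. Apoe alone was highest in replicate 1 of both groups (background 12.9%).

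Oligodendrocyte markers followed the same numbers. In 9 of the 10 markers replicate 1 was the lowest library of both groups, and the 10 markers summed to 8363, 12028 and 11374 CPM in NS and to 9942, 13160 and 13324 CPM in WS. Myelin basic protein (Mbp), a main protein of myelin, was at 3742, 5415 and 5442 CPM in NS and at 4732, 6069 and 5944 CPM in WS. All 10 markers had a positive log2 fold change, with a median of 0.20. None passed the test (edgeR), and 5 of 10 had an unadjusted p under 0.05 with the replicate block and 0 of 10 without it (background 1.38% and 0.866%). The 9 astrocyte markers also had a positive sign each, with a median of 0.13. WS replicate 3, in which Abca1 was highest, was the highest library for 5 of the 9 astrocyte markers, and WS replicate 1, in which Abca1 was lowest, for the other 4 (Aldh1l1, Aldoc, Sox9 and S100b). The median log2 difference of the 9 from their NS mean was 0.20 in WS replicate 3 and 0.17 in WS replicate 1. Their sum was 5702 CPM in WS replicate 3, of which Slc1a2 made up 3327 CPM, and 4565 to 4907 CPM in the other libraries. Of the other markers, 5 of 6 microglial ones were positive with a median of 0.10, 10 of 10 endothelial ones with a median of 0.11, and 3 of 8 neuronal ones with a median of −0.02. Of the endothelial markers Pecam1, named after its values were seen, had a log2 fold change of 0.87 ± 0.18, did not pass edgeR's test without the block and was called with it, as 1 of the 11 genes called there. The part of these cell types in the levels of the late enzymes and of Abca1 was not tested.

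**Figure D4:**
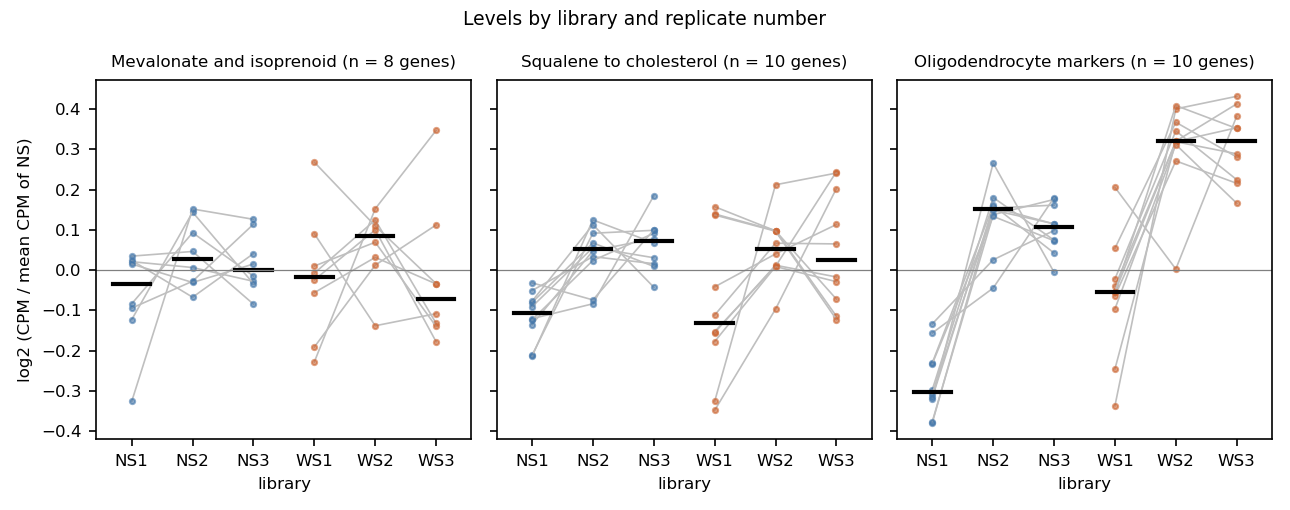
Log2 ratio of each gene's CPM to its NS mean, by library, for the 8 early enzymes, the 10 late enzymes and 10 oligodendrocyte markers. Points are genes, grey lines join a gene within a group and black bars are medians. Replicate 1 is low in both groups for the late enzymes (medians −0.11 and −0.13) and for the markers (medians −0.30 and −0.05), while in WS replicates 2 and 3 the medians are 0.05 and 0.02 for the late enzymes and 0.32 in both for the markers.

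Other genes of sterol and lipid metabolism were counted in 7 lists, of which 65 of 66 listed genes could be tested. The lists were chosen with earlier results of these data known, so their shares beside the background are a description and no test. None of the genes had an adjusted p under 0.05 (edgeR, 0.0364% of all tested genes), 2 had an unadjusted p under 0.05 with WS higher (background 0.866%) and 1 with WS lower (background 0.327%). The 10 genes of SREBP processing and sterol-regulated degradation were negative in 9 cases, with a median log2 fold change of −0.08, and in 4 of the 10 all WS values lay below all NS values (background 3.16%). Mbtps2, the protease that makes the second cut in SREBP, was at 33.8, 36.4 and 30.7 CPM in NS and at 26.2, 27.2 and 30.3 CPM in WS, a log2 fold change of −0.27 ± 0.10, with an unadjusted p under 0.05 by edgeR. The ubiquitin ligases Rnf139 and Rnf145 and Ufd1, a cofactor in the extraction of ubiquitinated proteins, were the others, at −0.15 ± 0.09, −0.10 ± 0.07 and −0.05 ± 0.07. Leaving out single libraries moved Rnf139 from −0.18 (without WS replicate 2) to −0.083 (without WS replicate 1). With 3 libraries against 3, the exact two-sided permutation p of a gene whose groups do not overlap is 0.1, the smallest possible.

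Of the 12 genes of LXR signalling and efflux, 10 were positive and the median was 0.07. Nr1h3, which encodes LXR alpha, was at 2.40, 1.93 and 2.86 CPM in NS and at 3.97, 3.15 and 3.28 CPM in WS. Its log2 fold change was 0.53 ± 0.22, from 31 to 67 counts per library. Apod, a lipid carrier also made by oligodendrocytes, had a log2 fold change of 0.19 ± 0.08. Both had WS values above all NS values (background 3.11%) and an unadjusted p under 0.05 by edgeR (background 0.866%). That p was lost for Apod with the replicate block and for Nr1h3 with DESeq2, and for each of them, and for Mbtps2, when some single libraries were left out. The 12 fatty acid genes that SREBP is known to control were positive in 11 cases with a median of 0.07, and none had an unadjusted p under 0.05. Of the 6 genes of sterol esters and oxysterols, 5 could be tested, and Nceh1, a cholesteryl ester hydrolase, was lower in all WS libraries at −0.12 ± 0.07. The 12 uptake and transport genes had a median of 0.03, the 9 isoprenoid branch genes −0.0078 and the 5 other sterol synthesis genes 0.06, and none of these lists held a gene whose groups did not overlap.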

How the data were processed

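The authors sequenced the libraries on a DNBseq platform. Per the methods, reads of rRNA and of low quality were removed and the rest aligned with HISAT2, and the submitters' processing notes name mm10. The counting tool is not given in the sources used here. Per gene, the authors deposited an estimated count averaged over all 6 libraries, with its SD. The authors deposited single libraries only as a standardized score, the z-score, which is the distance from that average in SDs. Both tables also hold the authors' own comparison (log2 fold change, p-value, FDR and −log10 p), and these columns and the second table were not used. The column of WS replicate 3 has an added letter in its name and was taken as that library.

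Each library's count was recovered by multiplying its z-score by the SD, adding the average, and rounding. In the 13418 of 14824 genes for which rounding left under 0.1 count of uncertainty, 88.5% of values came out whole, against 4.45% by chance. For the 27 genes the uncertainty was at most 0.0111% of the count. The design had been written for deposited counts. No pair of libraries agreed within sampling noise, so each was counted once.

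WS was compared with NS by edgeR 4.0.16 (TMM, filterByExpr, quasi-likelihood test, Benjamini-Hochberg adjustment over 13747 genes), in R 4.3.3, with a threshold of 0.05 on the adjusted p. Adding the log2 fold change over 1 of the study's methods left 0.0291% of genes. CPM used TMM-scaled library sizes, and depth was 15660395 to 17276168 counts per library. Positions and exon lengths came from GENCODE M21, and promoters from RefSeq (GRCm38.p6). Tests were checked on simulated data.

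Replicate numbers come from the sample titles. Deviations from the group means of log2 CPM correlated at r = 0.34, 0.23 and 0.12 between NS and WS libraries of the same number (13688 genes), against −0.26 to 0.04 between different numbers. Each same-number value exceeded 0.1, the third narrowly, so the numbers were taken to pair the libraries, although no label names a shared animal. Centring on the group means ties the correlations together, so those between different numbers are no independent comparison.

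The 27 genes, the other pathway lists and the marker lists were chosen with earlier results of these data known. All 27 are named. Of the other pathway lists, at most 5 genes each were to be named, those with the smallest p among genes with an unadjusted p under 0.05 or groups without overlap. The markers Mbp, Pecam1, Slc1a2, Aldh1l1, Aldoc, Sox9 and S100b were named outside this rule after their values were seen. Of the list genes 1 was absent from the table. Alternatives were other normalizations, filters, DESeq2 1.42.0, the replicate block and leaving out libraries.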

Additional observations from a re-analysis of the deposited data

How the results depend on the processing

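No setting gave any of the 27 genes an adjusted p under 0.05 by edgeR or DESeq2, and the lowest over the 13 settings was 0.884. Other normalizations and filters left the count of genes called at 5, the median of the set between 0.03 and 0.04, and every sign as reported. Over all genes, 8 were called by DESeq2 and 11 with the replicate block, which changed no call of the 27 genes and left their median at 0.03. Leaving out 1 library in turn gave 3, 0 and 0 called genes without NS replicates 1, 2 and 3, and 9, 5 and 6 without WS replicates 1, 2 and 3. The counts of the 27 genes then ran from 0 to 2 at an unadjusted p under 0.05 with WS higher (backgrounds of 0.649% to 2.3%), and from 0 to 3 with groups that did not overlap in either direction (backgrounds of 5.58% to 10.4%, since fewer libraries overlap less). The 2 were Idi1 and Sc5d without WS replicate 1. Without WS replicate 1, Idi1, Sc5d and Insig2 lay higher and Pmvk and Cyp46a1 lower. Without NS replicate 1, Mvd, Sqle and Nsdhl lay lower. Without NS replicate 2, Mvk lay higher, without NS replicate 3, Tm7sf2 did, and without WS replicate 2, Srebf1 lay higher and Fdft1 lower. The sign of 19 genes of the set changed when a single library was left out, and their log2 fold changes then ran from −0.076 to 0.060 for Acat2, −0.086 to 0.064 for Hmgcs1, −0.16 to 0.064 for Mvd, −0.026 to 0.25 for Idi1, −0.11 to 0.039 for Fdps, −0.00052 to 0.078 for Lss, −0.070 to 0.13 for Cyp51, −0.049 to 0.067 for Msmo1, −0.22 to 0.061 for Hsd17b7, −0.0035 to 0.12 for Ebp, −0.033 to 0.23 for Sc5d, −0.0078 to 0.12 for Dhcr7, −0.030 to 0.066 for Insig1, −0.029 to 0.081 for Insig2, −0.079 to 0.070 for Srebf2, −0.0096 to 0.11 for Scap, −0.034 to 0.13 for Stard4, −0.012 to 0.26 for Abca1 and −0.14 to 0.19 for Cyp46a1. For the other 8 the sizes moved as well, from 0.041 to 0.20 for Mvk, −0.12 to −0.013 for Pmvk, −0.053 to −0.00042 for Fdft1, −0.093 to −0.0017 for Sqle, 0.0079 to 0.17 for Tm7sf2, −0.11 to −0.0091 for Nsdhl, 0.0034 to 0.18 for Srebf1 and 0.029 to 0.16 for Apoe, with the value nearest 0 without WS replicate 1 for Mvk, Fdft1, Sqle, Nsdhl, Srebf1 and Apoe. A further setting, chosen after seeing the data, left out replicate 1 of both groups. It gave 1 gene at an unadjusted p under 0.05 with WS higher (Idi1, background 1.23%), 3 and 5 genes higher and lower without overlap (backgrounds 13.6% and 12.3%), a median of −0.013, and a change of sign for 11 genes, to 0.016 for Acat2, 0.027 for Hmgcs1, −0.014 for Mvk, 0.010 for Fdft1, −0.038 for Tm7sf2, −0.016 for Ebp, −0.042 for Dhcr7, −0.013 for Srebf1, −0.096 for Srebf2, −0.018 for Scap and −0.15 for Cyp46a1. Over all settings the sign did not change for 4 genes of the set, Pmvk, Sqle, Nsdhl and Apoe. Among the other pathway genes, the unadjusted p under 0.05 was lost for Nr1h3 with DESeq2 and without NS replicate 1, NS replicate 2 or WS replicate 1, for Apod with the replicate block and without NS replicate 1, NS replicate 2, WS replicate 2 or WS replicate 3, and for Mbtps2 without NS replicate 1, NS replicate 2, WS replicate 1 or WS replicate 2. Without replicate 1 of both groups it was lost for Nr1h3 and Mbtps2. Precision was limited by 3 libraries per group with a common biological coefficient of variation of 10.1% and, for the lower genes, by depth, since counts per library ran from 248 to 24493. Reads of 7 genes of the set can be shared with a gene on the other strand and those of 2 with one on the same strand, and whether counting used strand is not given in the sources used here.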
